A study of Mus musculus with 18 samples.

Results

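A set of 10 long noncoding RNAs that stay mostly in the nucleus, many from imprinted loci, was followed through a separation of mouse brain RNA by poly(A) tail length: Malat1, Neat1, Meg3, Rian, Mirg, Kcnq1ot1, Miat, Snhg11, Peg13 and Snhg14. Members were all probe sets annotated with 1 gene symbol equal to one of these names. Of the 10 RNAs, 9 had such a probe set, among 17097 genes on the array, and Peg13 had none. They had 27 probe sets, of 45037 on the array that were not controls, and 24 of the 27, from 8 RNAs, lay above the filter on low values and were tested among 29201 probe sets. The probe set of Snhg14 and 2 of the 6 of Kcnq1ot1 lay below the filter, which was the highest mean of 23 control probe sets made to bind nothing in the mouse (5.61 on the log2 scale).

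Cortex and striatum, dissected together, came from 6 mice aged 6 weeks: 2 CPEB4 KO animals, 2 CPEB4 GT/+ animals and 2 WT animals. The labels do not say how the CPEB4 KO and GT alleles were made, nor the strain or the sex of the animals. Each animal gave 3 arrays: ELUTED, the RNA released from a poly(U) column by 90% formamide and enriched for long poly(A) tails; WASH, the RNA released by 25% formamide and enriched for short tails; and INPUT, its total RNA before the column. All values are log2 levels normalized across arrays by the authors, so a total change in poly(A) RNA was not measured, and every difference is relative to the other probe sets on the arrays.

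Long noncoding RNAs of this kind act as RNA. Malat1 lies in nuclear speckles, bodies rich in splicing factors, and its mature 3' end is a triple helix made after cleavage by RNase P instead of a poly(A) tail. Neat1 builds paraspeckles, and only its short form ends in a poly(A) tail, while the long form ends like Malat1. Meg3, Rian and Mirg are transcribed from the maternal copy of the Dlk1-Dio3 imprinted cluster and are host RNAs of small nucleolar RNAs and microRNAs. Kcnq1ot1, read from the paternal copy antisense to Kcnq1, silences neighbouring genes, Miat is a neuronal RNA also called Gomafu, and Snhg11 and Snhg14 host small nucleolar RNAs.

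The start regions of the 3 RNAs of the Dlk1-Dio3 cluster are shown as a description. Probe sets of this cluster, above all those of Rian, gave tail fraction values of both signs. A link between start regions and tail fractions was not tested. Each window holds 250 bases before the annotated start and 50 from it on, on the plus strand of chromosome 12 in GRCm38.p6, from RefSeq. Start windows were available for 8 of the 10 RNAs. Capitals mark TGACGTCA, the cyclic AMP response element, and TATAAA, the core of the TATA box, searched on both strands. The Meg3 window is chr12:109540746-109541045, the Rian window chr12:109603695-109603994 and the Mirg window chr12:109734731-109735030.
Meg3: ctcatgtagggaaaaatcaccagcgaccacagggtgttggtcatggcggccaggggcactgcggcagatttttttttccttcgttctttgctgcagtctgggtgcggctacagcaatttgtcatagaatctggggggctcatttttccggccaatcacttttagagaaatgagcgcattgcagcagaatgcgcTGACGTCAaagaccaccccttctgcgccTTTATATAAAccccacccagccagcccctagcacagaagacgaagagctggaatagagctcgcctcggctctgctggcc
Rian: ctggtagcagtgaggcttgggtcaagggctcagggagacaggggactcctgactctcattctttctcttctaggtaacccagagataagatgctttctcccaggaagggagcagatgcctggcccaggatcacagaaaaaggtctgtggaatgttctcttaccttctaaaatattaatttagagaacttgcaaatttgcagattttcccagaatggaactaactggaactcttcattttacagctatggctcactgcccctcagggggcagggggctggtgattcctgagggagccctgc
Mirg: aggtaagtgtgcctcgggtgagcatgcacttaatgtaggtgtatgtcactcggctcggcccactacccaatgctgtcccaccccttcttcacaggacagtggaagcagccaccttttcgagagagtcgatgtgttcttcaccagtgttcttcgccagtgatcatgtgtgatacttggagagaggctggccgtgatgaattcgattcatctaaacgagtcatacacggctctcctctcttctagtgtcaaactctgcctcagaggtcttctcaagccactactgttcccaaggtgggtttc

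The Meg3 window held 1 TGACGTCA, which reads the same on both strands, and 2 overlapping matches to TATAAA, 1 on each strand, printed as a single run of capitals. Neither letter string occurred in the Rian or Mirg windows. Among 32851 RefSeq windows of the same length, 1.79% held TGACGTCA and 13.6% held TATAAA. CpG pairs numbered 13 in the Meg3 window, 0 in the Rian window and 10 in the Mirg window, with 53.7%, 49.3% and 51.3% of bases G or C. In a separate microRNA annotation, 1 microRNA hairpin lies within Meg3, 3 hairpins within Rian and 10 within Mirg. In the RefSeq annotation, 11 small nucleolar RNA genes lie within Rian.

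Arrays of the same genotype and fraction correlated at 0.982 to 0.996 across probe sets, which are not independent replicates, and no 2 columns were identical. The arrays differed in spread between fractions, with a standard deviation across probe sets of 1.78 to 1.90 in ELUTED, 1.95 to 2.01 in WASH and 1.88 to 1.95 in INPUT. The 3' minus 5' difference of the Actb control was -0.47 to -0.31 in ELUTED, -0.21 to -0.06 in WASH and -0.48 to -0.41 in INPUT. Its part in the results below was not tested, and fraction and preparation cannot be told apart, since each fraction was prepared by its own steps. Control probe sets for 18S ribosomal RNA, which has no poly(A) tail, read 12.16 to 12.89 in ELUTED, 11.85 to 12.42 in WASH and 12.78 to 12.97 in INPUT at the 5' set. All 3 Cpeb4 probe sets were lower in both CPEB4 KO animals than in both WT animals in every fraction. Of these, 1420617_PM_at, with levels of 4.82 to 6.31, had a mean over the arrays below the filter. At 1449931_PM_at, Cpeb4 INPUT levels were 6.55 and 6.92 in CPEB4 KO, 7.38 and 7.13 in CPEB4 GT/+ and 8.30 and 8.33 in WT. Markers of neurons, astrocytes, oligodendrocytes and microglia were above the filter in INPUT, as was the choroid plexus marker Ttr, which ranged from 7.84 to 11.8 over the 6 INPUT arrays.

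Kcnq1ot1, Malat1 and most Meg3 probe sets lay higher in the long-tail fraction than in the short-tail fraction, Neat1 and Mirg lay lower, and Rian differed between its probe sets. The ELUTED minus WASH difference was taken within each animal and tested against 0 over all 6 animals with limma, and a probe set was called at a Benjamini-Hochberg adjusted p under 0.05 over all probe sets tested. Of the 24 probe sets, 16 were called higher, 3 lower and 5 were not called, with a median difference of 0.45, and 10 of the 24 are of Meg3. Across all probe sets tested 33.6% were called higher and 42.6% lower, 76.3% in all, with a median of -0.08. With the authors' values further aligned on 18 hybridisation controls, that median was -0.57, and 11% of all calls were higher. The share of calls higher was 44.1% with the deposited scaling, 34.3% with arrays centred on their medians and 50.4% after quantile normalization. All 3 changes of scaling were made on the deposited values. The members' counts under alignment were 5 higher and 7 lower, beside 8.02% higher and 64.7% lower over all probe sets. With each RNA at the highest of its probe sets, 3 of the 8 were called higher, 2 lower and 3 were not called, beside 24.7% higher and 49.5% lower among 12543 genes read the same way, with medians of 0.03 for the 8 and -0.19 for all genes.

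**Figure D1:**
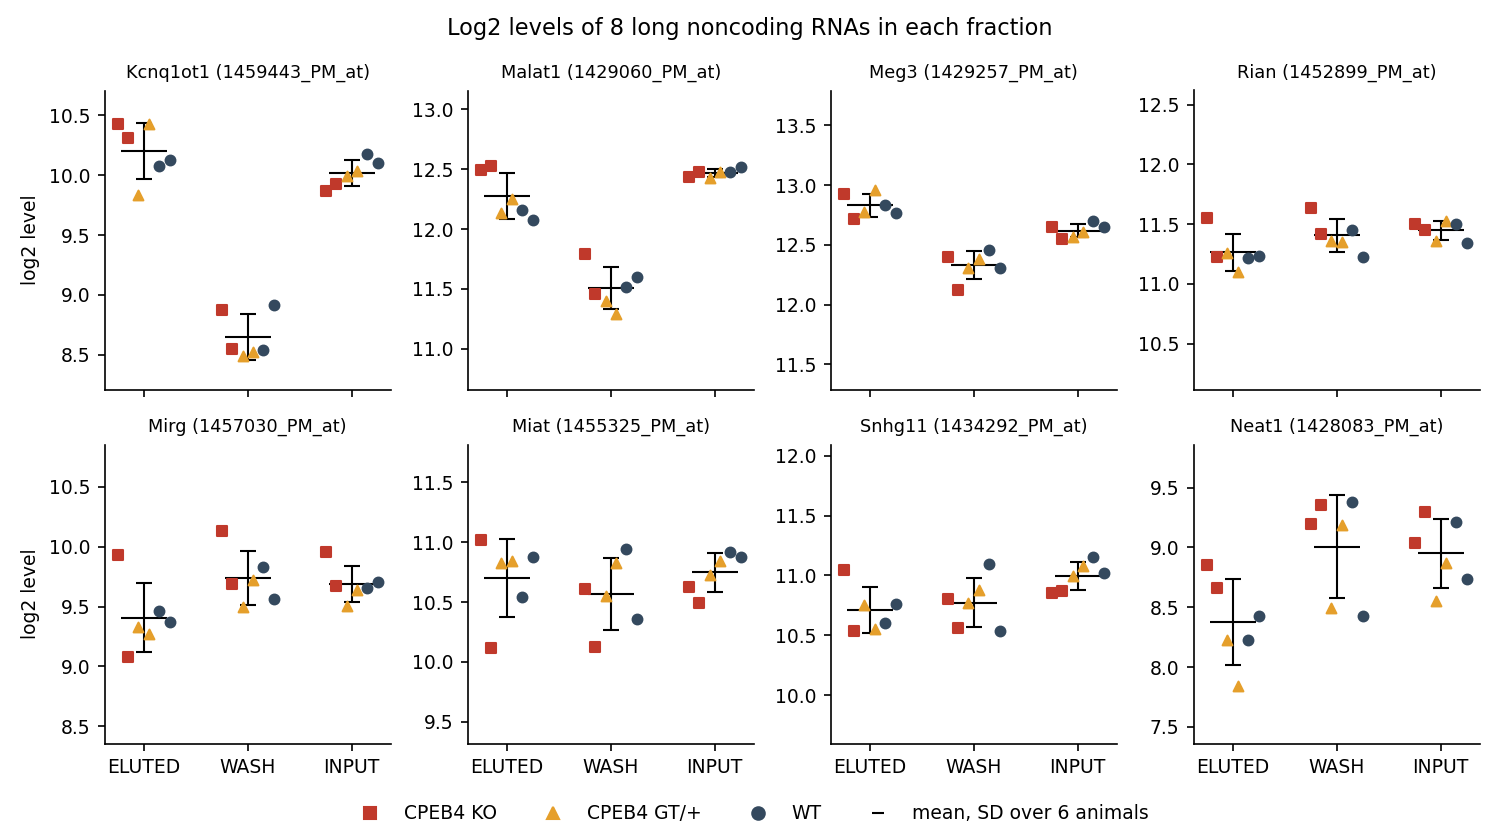
Log2 level of 8 long noncoding RNAs, each at the highest of its probe sets, in ELUTED, WASH and INPUT, with points for the 6 animals by genotype and bars for the mean and SD over them. Each panel spans the same log2 range, and levels are not comparable between panels. ELUTED lies wholly above WASH for Kcnq1ot1, Malat1 and Meg3, while the fractions overlap for the other 5 RNAs.

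Kcnq1ot1 held the 3 largest ELUTED over WASH differences of the 24 probe sets. At 1459443_PM_at its ELUTED level ran from 9.83 to 10.43 (median 10.22), its WASH level from 8.48 to 8.91 (median 8.54) and its INPUT level from 9.87 to 10.17 (median 10.02). Every ELUTED array was above every WASH array, and the INPUT range fell inside the ELUTED range. The ELUTED over WASH difference was 1.55 (SE 0.095, adjusted p 4.783e-06 by limma), higher in 6 of 6 animals, or about 2.9-fold. The other 3 tested probe sets gave 1.79 at 1458161_PM_at, 1.70 at 1457781_PM_at and 1.15 at 1441588_PM_at, and under alignment the 4 differences were 0.66 to 1.30, all still called. The 2 probe sets below the filter were also higher in ELUTED than in WASH in 6 of 6 animals, by 0.85 at 1446255_PM_at and 0.55 at 1442029_PM_at, with no test. The part of the difference on the WASH side was large: WASH over INPUT was -1.60 to -1.09 at the 4 probe sets. ELUTED over INPUT was called higher at 1457781_PM_at (0.61) and 1458161_PM_at (0.44), lower at 1441588_PM_at (-0.46), and was 0.18 (adjusted p 0.1103) at 1459443_PM_at. Of these, the call at 1458161_PM_at was lost under alignment (0.22, adjusted p 0.2521), and 1459443_PM_at was called after quantile normalization (0.34, adjusted p 0.02086). The labels do not say that labelling kept strand, so RNA of Kcnq1ot1 and of the overlapping Kcnq1 cannot be told apart by these values.

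Malat1 was read by 1 probe set of its own. Its ELUTED level at 1429060_PM_at ran from 12.08 to 12.52 (median 12.21), its WASH level from 11.29 to 11.79 (median 11.48) and its INPUT level from 12.43 to 12.52 (median 12.47). ELUTED and WASH did not overlap. The ELUTED over WASH difference of 0.76 (SE 0.082, adjusted p 5.402e-05 by limma) was seen in 6 of 6 animals, a 1.70-fold difference, and was 0.27 (adjusted p 0.06769) with arrays aligned on the hybridisation controls. WASH over INPUT was -0.96 (adjusted p 8.563e-06), while ELUTED over INPUT was -0.19 (adjusted p 0.04004) and lay below 0 in 4 of 6 animals, the other 2 being the CPEB4 KO animals (0.06 and 0.05). That call was lost after quantile normalization (-0.15, adjusted p 0.1041) and with the replicate number as a block (adjusted p 0.06157). Another 4 probe sets are annotated to both Malat1 and Ramp2, a receptor activity-modifying protein, and can be assigned to neither. Of these, 1427285_PM_s_at, 1452378_PM_at and 1438403_PM_s_at gave ELUTED over WASH differences of 1.55, 0.93 and 0.76, while 1436202_PM_at gave -0.30.

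Meg3 had the most probe sets, 10, all with an ELUTED over WASH difference above 0. At 1429257_PM_at the ELUTED level ran from 12.72 to 12.96 (median 12.81), the WASH level from 12.12 to 12.46 (median 12.34) and the INPUT level from 12.55 to 12.70 (median 12.63). ELUTED lay above WASH on every array, with the INPUT median between theirs. The difference was 0.50 (SE 0.070, adjusted p 0.0002225 by limma) in 6 of 6 animals, and it was 0.01 (adjusted p 0.9396) under alignment. Over the 10 probe sets it ranged from 0.003 at 1452183_PM_a_at to 0.71 at 1436713_PM_s_at, and 8 were called higher. Under alignment none of these 8 kept its call, 2 of the 8 turned below 0 and 1436057_PM_at (-0.38) and 1452183_PM_a_at (-0.49) were called lower. WASH over INPUT was called lower at 9 of the 10, by differences of -0.51 to -0.16, and higher at 1436713_PM_s_at (0.19), whose call was lost after quantile normalization (0.04). Under alignment 8 of the 9 calls lower were lost, 3 of them turning above 0, while 1426758_PM_s_at kept its call (-0.24) and 1436713_PM_s_at stood at 0.46 (adjusted p 3.576e-05). The same probe set had the largest Meg3 ELUTED over INPUT difference, 0.90 (adjusted p 0.000122), with ELUTED levels of 9.55 to 9.93 and INPUT levels of 8.60 to 9.06. At the other 9, ELUTED over INPUT was called higher at 3 and lower at 1452183_PM_a_at (-0.29). Under alignment the 3 calls higher were lost, that of 1429257_PM_at also with arrays centred on their medians (adjusted p 0.07669) and after quantile normalization (adjusted p 0.05428), and the call at 1452183_PM_a_at was lost after quantile normalization (adjusted p 0.1099).

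Rian, the next RNA in the cluster, gave opposite values at its 4 probe sets. At 1440001_PM_at the ELUTED level ran from 10.89 to 11.52 (median 11.04), the WASH level from 9.55 to 10.17 (median 9.85) and the INPUT level from 10.80 to 11.14 (median 11.03). Here ELUTED and WASH did not overlap, and the difference of 1.27 (SE 0.081, adjusted p 5.489e-06 by limma) was positive in 6 of 6 animals and stayed at 0.78 under alignment. At 1452899_PM_at, the probe set with the highest mean, ELUTED ran from 11.10 to 11.55 (median 11.23), WASH from 11.22 to 11.64 (median 11.39) and INPUT from 11.34 to 11.53 (median 11.48). These ranges overlapped, and the difference of -0.14 (adjusted p 0.11) was not called, although it was -0.63 (adjusted p 0.003008) under alignment and -0.26 (adjusted p 0.01352) with arrays centred on their medians. At 1427580_PM_a_at it was -0.21 (adjusted p 0.03703), a call lost when any animal but CPEB4 GT/+ 1 was left out (-0.25 to -0.15) and after quantile normalization (-0.06). At 1428055_PM_at, ELUTED levels of 7.57 to 8.14 and WASH levels of 7.34 to 7.71 both lay below INPUT levels of 8.81 to 9.38. There ELUTED over WASH was 0.40 (adjusted p 0.004803; -0.09 and not called under alignment), ELUTED over INPUT -1.18 and WASH over INPUT -1.58.

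Mirg had 1 probe set, 1457030_PM_at, and lay lower in ELUTED. Its ELUTED level ran from 9.08 to 9.93 (median 9.35), its WASH level from 9.50 to 10.13 (median 9.70) and its INPUT level from 9.50 to 9.96 (median 9.66). The ranges overlapped across animals, but within each of the 6 animals ELUTED was the lower fraction. The difference was -0.33 (SE 0.086, adjusted p 0.007228 by limma), and -0.04 (adjusted p 0.6705) after quantile normalization. WASH over INPUT was 0.05 and not called, while ELUTED over INPUT was -0.28 (adjusted p 0.02889). Under alignment WASH over INPUT was called higher (0.32, adjusted p 0.001034), and after quantile normalization the ELUTED over INPUT call was lost (-0.11, adjusted p 0.2925).

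Neat1, at 1428083_PM_at, was also lower in ELUTED, with the widest spread between animals. ELUTED ran from 7.84 to 8.86 (median 8.33), WASH from 8.42 to 9.38 (median 9.19) and INPUT from 8.55 to 9.30 (median 8.95). The ranges overlapped, and WT 2 alone had an ELUTED minus WASH difference above 0 (0.006), the other 5 animals lying between -1.35 and -0.26. The mean difference was -0.63 (SE 0.17, adjusted p 0.00915 by limma), and -0.34 (adjusted p 0.07829) after quantile normalization. ELUTED over INPUT was -0.58 (adjusted p 0.005066) in 6 of 6 animals, and WASH over INPUT 0.06 (adjusted p 0.542), though 0.33 and called (adjusted p 0.00251) under alignment. Which form of Neat1 the probe set reads is not given in the sources used here.

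Miat and Snhg11 showed small differences with the deposited scaling, and both moved with the scaling. At 1455325_PM_at, Miat ran from 10.12 to 11.02 (median 10.83) in ELUTED, from 10.12 to 10.95 (median 10.58) in WASH and from 10.49 to 10.92 (median 10.79) in INPUT. The ranges overlapped, and ELUTED over WASH was 0.13 (95% interval -0.15 to 0.41, adjusted p 0.3461 by limma), -0.36 and not called under alignment and 0.33 (adjusted p 0.02783) after quantile normalization. At 1458903_PM_at it was 0.30 (adjusted p 0.007992) in 6 of 6 animals, a call lost without WT 2 (0.24, adjusted p 0.06823) and with arrays centred on their medians (0.18, adjusted p 0.06946), and -0.19 under alignment. Snhg11 at 1434292_PM_at ran from 10.53 to 11.05 (median 10.68) in ELUTED, from 10.54 to 11.09 (median 10.78) in WASH and from 10.85 to 11.16 (median 11.004) in INPUT, all overlapping. Its ELUTED over WASH difference was -0.06 (95% interval -0.31 to 0.18, adjusted p 0.5965), while ELUTED over INPUT (-0.28) and WASH over INPUT (-0.22) were both called lower. Under alignment ELUTED over WASH was called lower (-0.55, adjusted p 0.01354) and WASH over INPUT was 0.05. The WASH over INPUT call was also lost with arrays centred on their medians (adjusted p 0.07751), and the ELUTED over INPUT call after quantile normalization (adjusted p 0.157). Snhg14, below the filter, read 4.06 to 4.23 in ELUTED, 4.39 to 4.72 in WASH and 4.15 to 4.49 in INPUT and was not tested.

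Probe sets of the same RNA were set against each other within animals, each against the probe set with the highest mean. Of the 16 such pairs from 4 RNAs, 7 had ELUTED over WASH differences that differed at adjusted p under 0.05, where 63.3% of 7725 pairs over all genes did, 32.4% above and 31.0% below. These were 1440001_PM_at of Rian, 1.41 above (SE 0.10, adjusted p 5.68e-05 by limma), 1428055_PM_at of Rian, 0.54 above, 1441588_PM_at of Kcnq1ot1, 0.41 below (adjusted p 0.0131), and 4 of Meg3, 3 of them below. The Meg3 pairs below were -0.50 at 1452183_PM_a_at, -0.39 at 1436057_PM_at and -0.19 at 1429256_PM_at, and 1436713_PM_s_at lay 0.21 above. The 1 Miat pair differed by 0.17 (95% interval -0.06 to 0.40). Without WT 1 or without CPEB4 KO 2, 4 of the 16 pairs were called, beside 47.2% and 48.3% of all pairs in those settings.

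**Figure D2:**
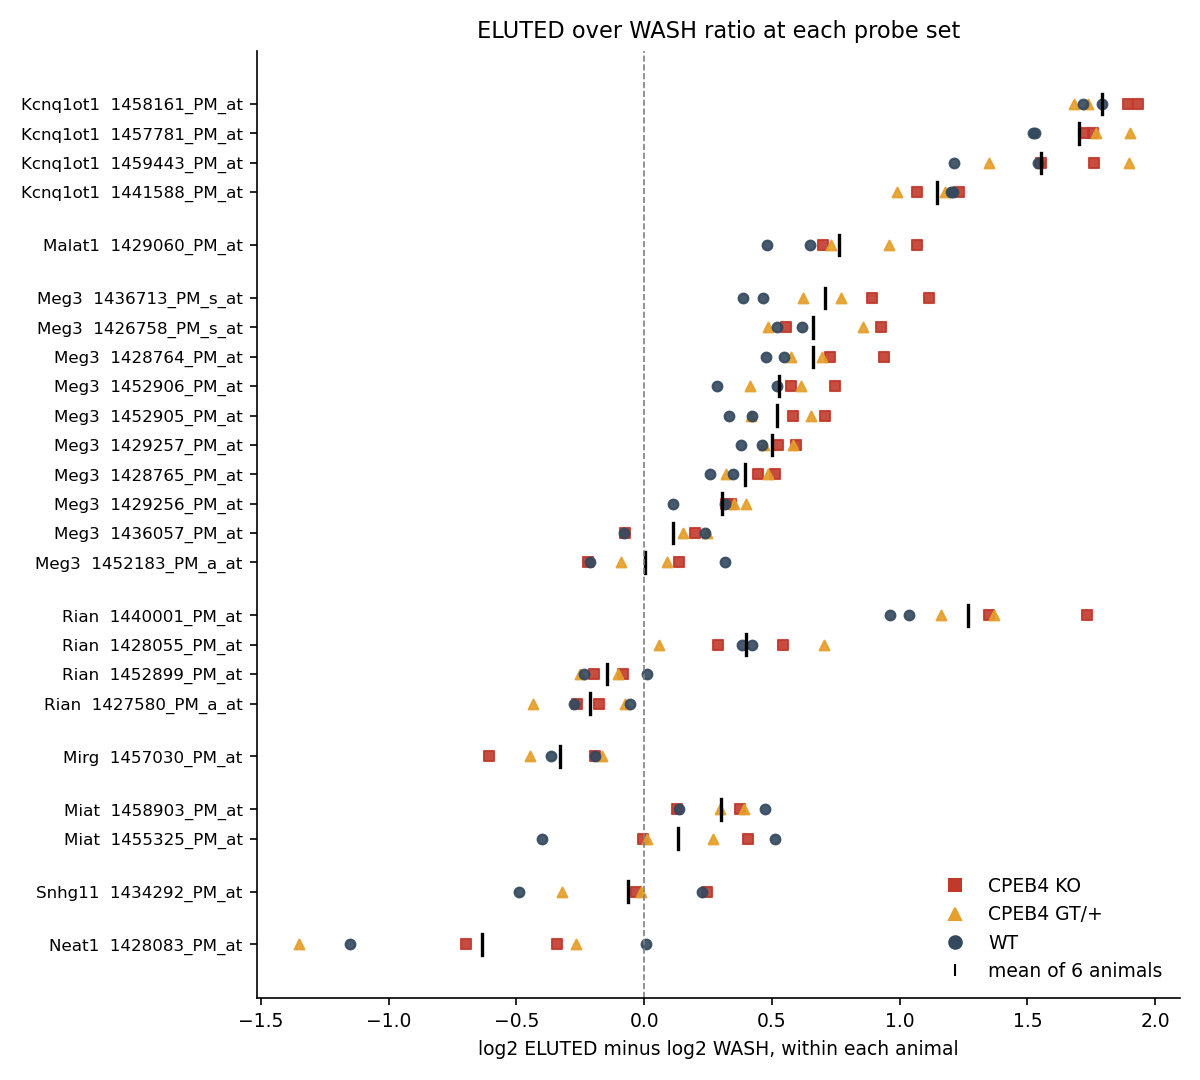
Log2 ELUTED minus log2 WASH within each of 6 animals at the 24 tested probe sets of 8 RNAs, grouped by RNA, with points by genotype and a bar at the mean. The Kcnq1ot1 bars lie at 1.15 to 1.79, the Meg3 bars at 0.003 to 0.71, and the 4 Rian bars run from -0.21 to 1.27.

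As a spread, the ELUTED over WASH means of the 4 Rian probe sets spanned 1.48 on the log2 scale and had both signs. Among 436 genes with 4 tested probe sets the median span was 0.76, and 55 of them had a wider span than Rian. The 4 Kcnq1ot1 probe sets spanned 0.65, less than in 255 of those 436 genes. Meg3 spanned 0.71 over 10 probe sets, and 57 of 75 genes with 6 or more were wider (median 1.15). The 2 Miat probe sets spanned 0.17, and 2245 of 3081 genes with 2 were wider. The files give no positions for the probe sets, so their order along each RNA is not analysed here.

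Against INPUT, more of the probe sets were called lower in WASH than in ELUTED with the deposited scaling. The counts of the 8 RNAs, each at the highest of its probe sets, did not show this. Of these, 4 were called lower and 0 higher in WASH over INPUT, and 4 lower and 1 higher in ELUTED over INPUT. Among 12543 genes read the same way, the shares were 19% and 45.4% in WASH over INPUT and 31.2% and 15.5% in ELUTED over INPUT. Meg3 holds 10 of the 24 probe sets and 9 of the 19 WASH over INPUT calls lower. WASH over INPUT was called lower at 19 of 24 probe sets, higher at 1 and not called at 4, where 28.2% of all probe sets were called lower and 39.2% higher, 67.4% in all. The median over the 24 was -0.29, and over all probe sets 0.06. ELUTED over INPUT was called higher at 6, lower at 8 and not called at 10, beside 22.5% higher and 27.5% lower over all, 50% in all, with medians of 0.04 for the 24 and -0.002 for all. Under alignment the WASH over INPUT calls were 4 higher and 8 lower, beside 67% and 9.83% of all probe sets, and the ELUTED over INPUT calls 2 higher and 10 lower, beside 3.54% and 34.9%. The ELUTED over INPUT calls lower were 4 without WT 1, without WT 2 or without CPEB4 KO 2, beside 19.7%, 21.1% and 21.3% of all probe sets. The 1 WASH over INPUT call higher was lost without WT 2 or CPEB4 KO 1, beside 35.6% and 36.2% of all probe sets called higher.

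**Figure D3:**
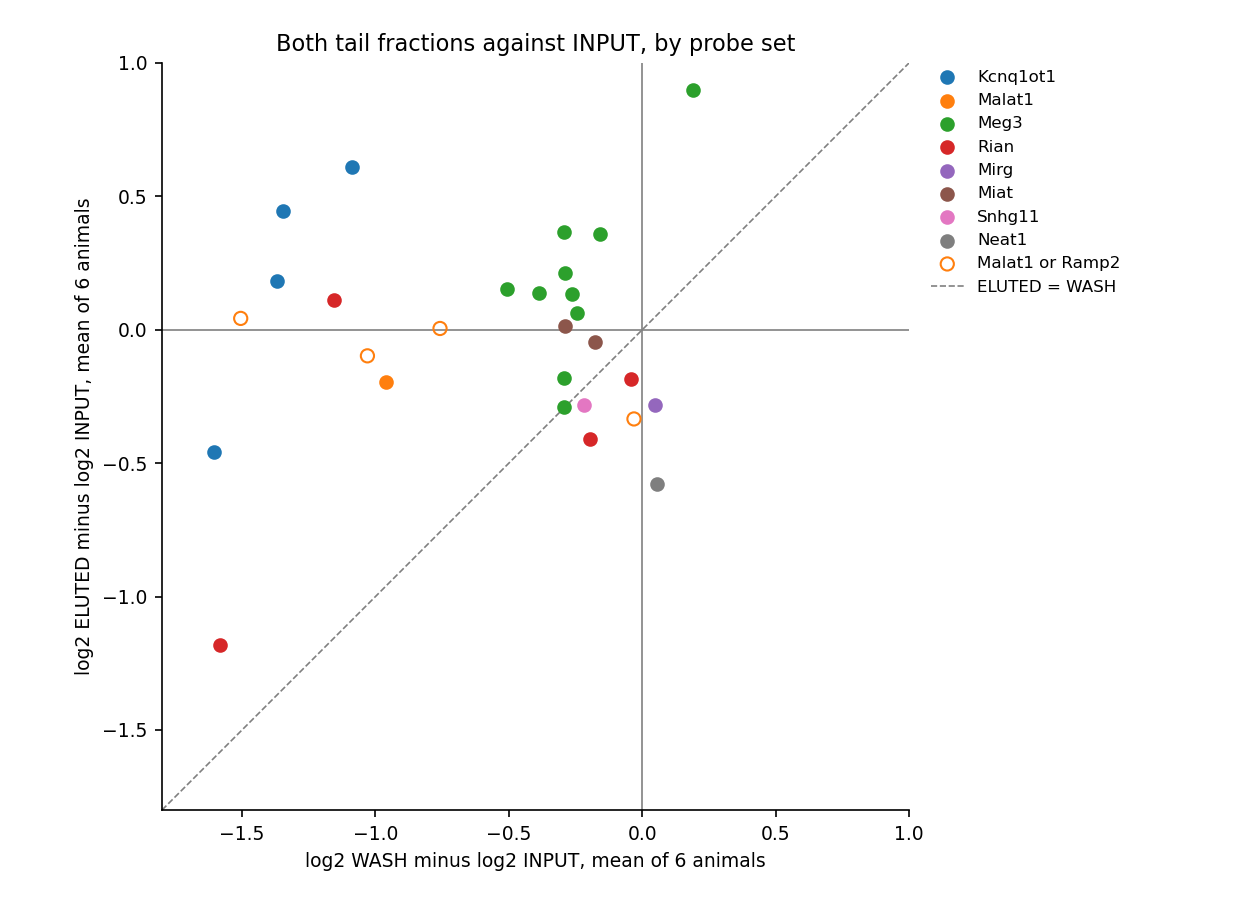
Mean log2 WASH minus INPUT (horizontal) and ELUTED minus INPUT (vertical) over 6 animals, 1 point per probe set, coloured by RNA, with open circles for the 4 probe sets shared by Malat1 and Ramp2 and a dashed line where ELUTED equals WASH. Kcnq1ot1 lies far to the left, at WASH minus INPUT of -1.60 to -1.09, while Mirg and Neat1 lie near 0 on the horizontal axis and below 0 on the vertical.

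The genotype comparisons asked whether these RNAs' levels or tail fractions differed with the Cpeb4 alleles, Cpeb4 coding for a cytoplasmic protein that acts on poly(A) tails. None of the 24 probe sets was called in any of 8 comparisons by limma: CPEB4 KO and CPEB4 GT/+, each against WT, in INPUT, WASH, ELUTED and the ELUTED over WASH difference. For CPEB4 KO the background was 0.0582% of all probe sets in INPUT, 0.0514% in WASH, 0.00342% in ELUTED and 0% in the ELUTED over WASH difference, and for CPEB4 GT/+ it was 0% in all 4. At an unadjusted p under 0.05 there were 4, 2, 4 and 2 of the 24 for CPEB4 KO in that order and 1, 1, 0 and 0 for CPEB4 GT/+. Over all probe sets the shares were 13.4%, 6.42%, 6.71% and 7.59% for CPEB4 KO and 3.64%, 5.48%, 1.55% and 1.45% for CPEB4 GT/+. limma with a trend and robust settings also called 0 of the 24 in each. With 2 animals a group the intervals are wide, and a missed threshold does not show equal levels. In tissue RNA, fewer cells of a type and less RNA per cell cannot be told apart.

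**Figure D4:**
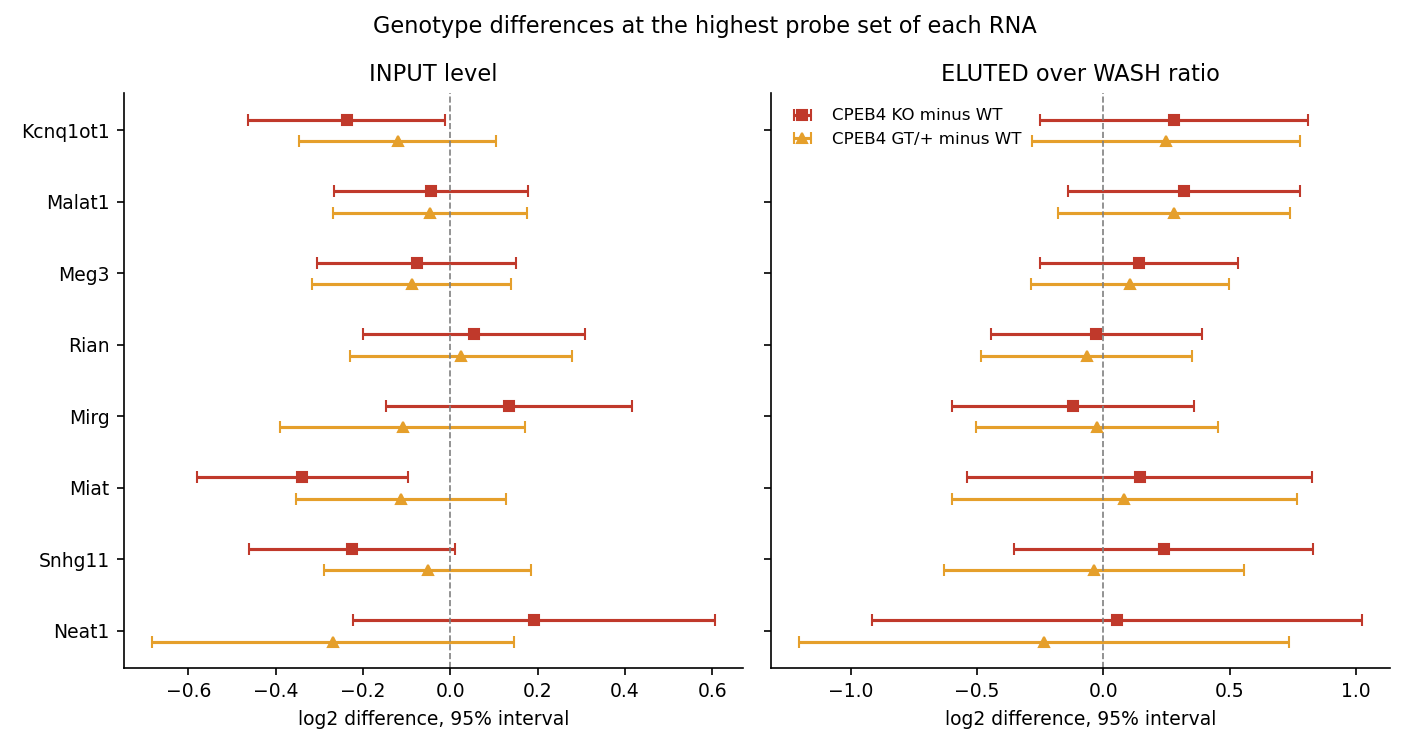
Log2 difference of CPEB4 KO (squares) and CPEB4 GT/+ (triangles) from WT at the highest probe set of each of 8 RNAs, in the INPUT level and in the ELUTED over WASH difference, with 95% intervals from limma (2 animals per genotype). The intervals cross 0 except for Miat and Kcnq1ot1 in CPEB4 KO INPUT, and no difference passed the adjusted threshold.

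The smallest adjusted p of the 24 in CPEB4 KO INPUT, 0.2651, was that of Miat at 1455325_PM_at, with a difference of -0.34 (95% interval -0.58 to -0.10). The second Miat probe set, 1458903_PM_at, had the opposite sign, 0.28 (0.01 to 0.54). Kcnq1ot1 at 1459443_PM_at had INPUT levels of 9.87 and 9.93 in CPEB4 KO, 9.996 and 10.04 in CPEB4 GT/+ and 10.17 and 10.10 in WT, a CPEB4 KO difference of -0.24 (-0.46 to -0.01, adjusted p 0.3562). All 10 Meg3 probe sets had CPEB4 KO minus WT differences below 0 in INPUT, -0.23 to -0.003, and above 0 in ELUTED, 0.004 to 0.13, none called, and the 10 share the same animals and the same RNA. These signs were not particular to Meg3: of all 24 probe sets, 18 lay below 0 in INPUT and 21 above 0 in ELUTED. The medians over all probe sets tested were 0.015 and 0.016. For CPEB4 GT/+ minus WT, 9 of the 10 Meg3 probe sets lay below 0 in INPUT and 10 above 0 in ELUTED.

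For the ELUTED over WASH difference, Malat1 read 0.70 and 1.07 in CPEB4 KO, 0.73 and 0.96 in CPEB4 GT/+ and 0.65 and 0.48 in WT. The CPEB4 KO minus WT difference of Malat1 was 0.32 (95% interval -0.14 to 0.78, adjusted p 0.6776 by limma). Rian at 1440001_PM_at read 1.35 and 1.73 in CPEB4 KO, 1.16 and 1.37 in CPEB4 GT/+ and 1.04 and 0.96 in WT, a CPEB4 KO difference of 0.54 (0.09 to 1.00, adjusted p 0.6501). Meg3 at 1436713_PM_s_at read 0.89 and 1.11 in CPEB4 KO, 0.62 and 0.77 in CPEB4 GT/+ and 0.46 and 0.39 in WT, a difference of 0.58 (0.17 to 0.99, adjusted p 0.6501). These 3 were among the larger differences: over the 24 probe sets the CPEB4 KO minus WT difference ran from -0.12, at Mirg, to 0.58, with 17 above 0 and 7 below. Those below 0 included 2 of the 10 Meg3 probe sets and 2 of the 4 of Rian, whose median was -0.01. The comparisons of CPEB4 KO and CPEB4 GT/+ share the 2 WT animals.

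Other noncoding RNAs and genes of the same nuclear bodies were read beside them, each gene at the highest of its probe sets, with ELUTED over WASH calls as above, so that the shares for comparison are the 24.7% higher and 49.5% lower among 12543 genes, with a median of -0.19. Of 20 tested among 38 other noncoding RNAs, 6 were higher and 9 lower (median -0.08). The lowest were Snhg8 (-1.81) and Gas5 (-1.64), hosts of small nucleolar RNAs, and the highest were Jpx (0.99), an RNA that activates Xist, and Rmst (0.89). Norad, a cytoplasmic RNA that binds Pumilio proteins, read 0.04 and was not called, and Tug1 -0.29.

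Among mRNAs of 15 paraspeckle and nuclear speckle proteins, 3 were higher and 11 lower (median -0.49). The lowest were Srsf1 (-1.33), a splicing factor, and Pspc1 (-1.23), a paraspeckle protein, and the highest Taf15 (1.09) and Srrm2 (0.85), with Son, a speckle scaffold, at 0.32. Of 11 nuclear poly(A) and RNA decay factors, 1 was higher, Rbm26 (0.31), and 6 lower (median -0.20), led by the poly(A) polymerase Papolg (-1.46) and Zfc3h1 (-1.38), which directs nuclear RNA to the exosome. Pabpn1, the nuclear poly(A)-binding protein, read 0.02 and was not called, and Ythdc1, a reader of methylated nuclear RNA, -0.52.

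Of 14 protein-coding neighbours in the imprinted or host loci, 6 were higher and 5 lower (median 0.06). In the Kcnq1ot1 domain Slc22a18, a transporter, read 0.57, Phlda2 0.47 and Kcnq1 0.32, all called higher. Their mean levels over the arrays were low, at 6.35, 6.41 and 5.92 in that order. In the same domain Nap1l4, a histone chaperone, read -0.29 (mean level 10.1) and Cdkn1c, a cell-cycle inhibitor, -0.75 (mean level 6.25), both called lower. Over all probe sets the median difference was 0.07 without the filter and -0.19 with the lower 50% of probe sets left out. The part of level in these calls was not tested. Beside Peg13, Ago2, a microRNA effector, read 0.59, while the other tested neighbours there, Trappc9 (-0.50) and Chrac1 (-0.62), named after their values were seen, were called lower. Near Snhg14, Ube3a read 0.27 (called higher), Snrpn 0.13 (not called) and Ndn -0.81 (called lower). Since the labels do not say that labelling kept strand, RNA of Ube3a and of the overlapping Snhg14 cannot be told apart by these values. The same holds for RNA of Kcnq1 and of the overlapping Kcnq1ot1. Of the others in this list, Dlk1 read 0.29 (called higher, mean level 6.34), and Magel2 (-0.02) and Atp10a (-0.05) were not called. No gene of these 4 lists was called in a genotype comparison, and the lists, like the 10 RNAs, hold few genes.

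By the mean absolute difference of centred levels over the 18 arrays, the profiles nearest to Kcnq1ot1 were those of Speer8-ps1 (0.12) and Gm26911 (0.12), and to Malat1 those of Gm13872 (0.08) and Mrtfb (0.08). Nearest to Meg3 were Evi5l and Ddx55 (0.06 each), to Rian Agrn (0.06) and Bicd2 (0.07), to Mirg Lrwd1 (0.09) and Aup1 (0.10), and to Neat1 Ccnl2 and Plxna3 (0.17 each). Nearest to Miat were Slc2a4rg-ps and Fyco1 (0.135 each), and to Snhg11 Pabpn1 (0.08, at another probe set than above) and Stxbp2 (0.08). These arrays share fractions and animals, and the likeness is a description.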

How the data were processed

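Cortex and striatum RNA of 6 mice was measured on 18 arrays. The deposited table holds log2 levels that the authors made with RMA, per the submitters' processing notes, with no version or annotation stated, after amplification of 5 ng RNA over 21 cycles and hybridisation of 8 µg cDNA, per the labels' protocols. PrimeView is the array name in the labels' series text, but the probe sets are named as on a different mouse array (PM in the name), and genes were taken from the supplied probe table by those names.

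Controls (104 of 45141 probe sets) were set aside, and 29201 with a mean above 5.61 over the 18 arrays were tested. Differences within animals, and differences between genotypes, were fitted by lmFit, contrasts.fit and eBayes of limma 3.58.1 (no trend, R 4.3.3), all 6 animals sharing 1 spread, with 3 residual degrees of freedom before moderation. Tests were two-sided, with Benjamini-Hochberg adjustment over all probe sets tested and calls at 0.05. For 2 animals against 2, the smallest p of an exact test is 0.333, and precision is limited by how many arrays there are. The code was tested on simulated data. Replicate numbers were checked for pairing through the correlation of deviations in the ELUTED over WASH difference, which was 0.491 between CPEB4 KO and CPEB4 GT/+, -0.29 between CPEB4 KO and WT and -0.329 between CPEB4 GT/+ and WT, so the numbers were not taken to pair animals.

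The genes named are all 1-symbol probe sets of the 10 RNAs, Cpeb4 and the 2 nearest profiles of each RNA. Each of the 4 lists gave up to 2 genes with the largest calls each way and up to 2 with the highest levels. Trappc9, Chrac1, Phlda2, Kcnq1, Ube3a, Dlk1, Magel2 and Atp10a lie outside this rule and were named after their values were seen. The members and lists were chosen with earlier results of these data known. Alternatives covered the filter, 3 scalings applied to the deposited values, probe set choice, moderation, a replicate block and leaving out each animal. Probe sets naming several genes were left out of the members. Sequences came from RefSeq (GRCm38.p6).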

Additional observations from a re-analysis of the deposited data

Results flagged for a closer look

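In 2 of 72 sets of 6 within-animal differences, 1 animal stood apart from the other 5 by Dixon's test, which marks about 1 in 20 sets by chance. For Meg3 1429256_PM_at, WT 1 had an ELUTED minus WASH difference of 0.1146, the next animal 0.3164 and the highest 0.3974. For Meg3 1452905_PM_at, CPEB4 KO 2 had a WASH minus INPUT difference of -0.2729, the next animal -0.1528 and the highest -0.1244.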

How the results depend on the processing

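Limits: 2 animals a genotype, 1 array per animal and fraction, no probe positions, and no measure of total poly(A) RNA. The 4 Kcnq1ot1 probe sets and Rian 1440001_PM_at were called higher for ELUTED over WASH under all 3 other scalings. Aligned on the hybridisation controls, the members' calls for ELUTED over WASH were 5 higher and 7 lower (8.02% and 64.7% of all probe sets). For ELUTED over INPUT 2 were higher (3.54%), and for WASH over INPUT 4 were higher and 8 lower (67% and 9.83%). Among probe sets called with either scaling, signs turned there for ELUTED over WASH at Rian 1428055_PM_at (-0.090), Meg3 1428765_PM_at (-0.096), 1429256_PM_at (-0.18), 1436057_PM_at (-0.38) and 1452183_PM_a_at (-0.49) and Miat 1458903_PM_at (-0.19), for ELUTED over INPUT at Meg3 1429257_PM_at (-0.0098), and for WASH over INPUT at Rian 1427580_PM_a_at (0.073) and 1452899_PM_at (0.23), Meg3 1428765_PM_at (0.0076), 1429256_PM_at (0.026) and 1452905_PM_at (0.11) and Snhg11 1434292_PM_at (0.050). Among probe sets called with neither, 1 turned for ELUTED over WASH, 7 for ELUTED over INPUT and 1 for WASH over INPUT. After quantile normalization 0 were called lower for ELUTED over WASH (35.2% of all probe sets) and 4 lower for ELUTED over INPUT (23.1%). For WASH over INPUT 0 were then called higher (32.2%), and the Meg3 1428765_PM_at pair turned to 0.20. With 1 probe set per gene, 8 were tested, of which 3 were higher for ELUTED over WASH (24.4% of all genes), 1 higher and 4 lower for ELUTED over INPUT (14.4% and 30% of all), and 0 higher and 4 lower for WASH over INPUT (45.8% and 19.4%). Without a filter, 2 were higher for WASH over INPUT (29% of all probe sets). Among probe sets without an _a, _s or _x mark in the name 0 were (35.7%), with 4 pairs called of 12 (67% of all pairs). Leaving out 1 animal gave 5 to 8 higher and 4 to 8 lower for ELUTED over INPUT. It gave 0 to 1 higher for WASH over INPUT and 4 to 7 pairs called. The 4 lower came without WT 1, WT 2 or CPEB4 KO 2 (19.7%, 21.1% and 21.3% of all probe sets). The 0 higher came without WT 2 or CPEB4 KO 1 (35.6% and 36.2%), and the 4 pairs without WT 1 or CPEB4 KO 2 (47.2% and 48.3% of all pairs). For ELUTED over WASH, leaving out 1 animal gave 15 to 16 higher and 2 to 3 lower, beside 33.6% and 42.6% of all probe sets with all 6 animals. The cause of these changes was not tested. The replicate block, which pairs no known animals, ended 3 calls: Malat1 ELUTED over INPUT (-0.19, adjusted p 0.06157 by limma) and the Meg3 pairs of 1429256_PM_at (-0.19, adjusted p 0.07322) and 1436713_PM_s_at (0.21, adjusted p 0.06474), and changed no other call.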
